A study of Mus musculus with 16 samples.

Results

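The 50 genes described here encode 30 ligands and 20 receptors of the semaphorin, ephrin, Slit and netrin guidance families. They were chosen by symbol, and each gene was read through its brightest probe that passed the detection filter on Illumina mouse BeadChips, which read each probe as the brightness of beads that carry it. Of the 50 genes, 48 had a probe under their symbol and 36 were tested among 10724 genes in all, 20 of them ligands and 16 receptors. The samples were 4 mouse mammary tumour cell lines, each measured on 4 arrays. The labels give no replicate numbers, and those used here follow the order of the samples in the series. MI6 and MI7 carried d16HER2, the splice variant of HER2 without exon 16, and WTHER2-1 and WTHER2-2 carried the full-length (WT) receptor. Every line thus carried a HER2 transgene, and no line without one was measured. The labels name no strain, transgene promoter, age or treatment, and leave unsaid whether its 4 arrays come from separate cultures, so p-values over arrays measure only the spread between these arrays, which may be technical.

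Semaphorins signal through plexins, and most secreted class 3 semaphorins first bind a neuropilin that joins the plexin. Ephrins are tied to the membrane and bind Eph receptor tyrosine kinases on the neighbouring cell, A-type ephrins mostly EphA and B-type mostly EphB receptors. Slits bind Robo receptors, and netrins bind receptors that include the Unc5 family. In the mammary gland these families are known for roles in duct branching, boundaries between luminal and basal cells and blood vessel growth.

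Values are log2 intensities after background correction and quantile normalization. A transgene difference is the d16HER2 level minus the WT HER2 level, over line means, and its error is the standard error from limma. Levels of different probes cannot be set against each other, so each gene was compared only with itself. Arrays detected 35.8% to 42.4% of 45281 probes, at a detection p under 0.05. Arrays of a line correlated across genes at 0.852 or more in WTHER2-2 and at 0.959 or more in the other lines. The 4 arrays of WTHER2-2 stood apart by BeadChip. Of all genes, 20.8% differed at least 2-fold between its replicates 1 and 2 on BeadChip 3 and replicates 3 and 4 on BeadChip 4, against 0.27%, 0.41% and 2% between the BeadChips of MI6, MI7 and WTHER2-1. The mean of 10 tested epithelial markers was 11.61, 11.52, 8.41 and 6.31 on WTHER2-2 replicates 1 to 4, and that of 10 tested fibroblast or mesenchymal markers 8.33, 8.46, 11.97 and 11.60. Epithelial means were 11.12 to 12.08 on the arrays of the other lines. Of the epithelial markers, Cdh1, Krt8, Krt18, Cldn7 and Esrp1 were detected on all 16 arrays. Epcam was detected on 3 arrays of WTHER2-1 and 2 of WTHER2-2. In WTHER2-2, Cldn3, Cldn4, Esrp2 and Grhl2 were each detected on 3 arrays. Krt19 was detected on no array and Ovol1 on 2. The mesenchymal marker means were 5.75 to 6.48 on the d16HER2 arrays and 7.67 to 8.57 in WTHER2-1, so they did not overlap between the transgenes. Single markers did not all follow the means. Zeb1, Dcn and Col6a2 were detected in both WT HER2 lines and on no d16HER2 array. Vim and Twist1 were detected on all 16 arrays, and Pdgfrb in WTHER2-2 alone. Col1a2 was detected on 3 arrays of MI6, 2 of MI7, 1 of WTHER2-1 and 4 of WTHER2-2. The part of either marker list in the transgene differences below was not tested. No BeadChip held both transgenes, so BeadChip and transgene cannot be told apart. In such bulk samples, fewer cells of a type and less RNA per cell cannot be told apart either.

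Semaphorin genes moved in both directions between the transgenes. Of 12 tested semaphorins, 3 were separated by transgene, meaning that all 4 pairs of a d16HER2 and a WT HER2 line differed in the same direction by at least 1 on the log2 scale at a limma adjusted p under 0.05. Sema3b and Sema4g were higher in the d16HER2 lines and Sema3a was lower. Over all 36 members the same 3 were separated, 8.33%, against 5.52% of all genes tested (3.06% higher and 2.46% lower in d16HER2). Sema4g was detected on 8 d16HER2 and 0 WT HER2 arrays, and Sema3a on 0 and 7. Both thus passed the detection filter only through the lines where they were higher, so the count and their p-values are no independent support. The median difference of the members was -0.16, against 0.03 over all genes. With the line as replicate, 0 of the 36 members passed in limma over all genes, where 0.494% of all genes did. At an unadjusted p under 0.05, 9 members passed, 25% against 19.6% of all genes, 6 of them lower in d16HER2. With 2 lines a side, the smallest p of an exact permutation test is 0.333.

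Sema3a, a secreted semaphorin that repels axons through neuropilin-1 and A-type plexins, was at or near background in both d16HER2 lines. Its log2 intensity on replicates 1 to 4 was 4.82, 4.90, 4.81 and 4.74 in MI6, 4.91, 5.19, 4.83 and 4.97 in MI7, 9.47, 9.59, 6.73 and 9.54 in WTHER2-1 and 5.20, 6.0, 9.67 and 10.55 in WTHER2-2. No d16HER2 array detected the probe, 7 of 8 WT HER2 arrays did, and the arrays of the transgenes did not overlap, as for 4.73% of all genes in this direction. The mean of the d16HER2 lines was 4.90 and that of the WT HER2 lines 8.34, at least a 6.57-fold lower level (line-level limma adjusted p = 0.0665). In the pairs, limma's adjusted p was 0.00436 for MI6 and 0.00625 for MI7 against WTHER2-1, and 0.02 and 0.0255 against WTHER2-2. WTHER2-2 replicates 1 and 2 lay close to the d16HER2 arrays, while replicates 3 and 4 were the highest of all 16. The call was lost without WTHER2-2 replicate 3 (-3.14), without WTHER2-2 replicate 4 (-3.0), without MI7 replicate 1 (-3.44) and without MI7 replicate 3 (-3.42). With BeadChip 3 of WTHER2-2 alone the difference was -2.32 and not separated, and with BeadChip 4 alone it was -4.57 and separated. Over the 36 members, 3 were separated with BeadChip 3 alone (Sema3b, Sema4g and Nrp1; 5.8% of all genes were), 3 with BeadChip 4 alone (Sema3a, Sema3b and Sema4g; 6.85% of all genes) and 2 with either (4.16% of all genes). The epithelial and mesenchymal marker means given above moved between the same BeadChips, and their part in the result was not tested.

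Sema3b, another secreted class 3 ligand, studied as a candidate tumour suppressor, showed the opposite order. Its log2 intensity on replicates 1 to 4 was 8.28, 8.03, 8.10 and 8.16 in MI6, 7.46, 7.01, 7.23 and 8.11 in MI7, 5.22, 5.19, 5.05 and 5.17 in WTHER2-1 and 5.89, 5.62, 6.09 and 6.53 in WTHER2-2. All d16HER2 arrays lay above all WT HER2 arrays, as for 6.84% of all genes in this direction, and WTHER2-2 detected the probe on all its arrays while WTHER2-1 did on none. Against WTHER2-1 it was at least 6.02-fold higher in MI6 and 3.74-fold higher in MI7. The transgene difference was 2.20 ± 0.44 (line-level limma adjusted p = 0.125). Its other passing probes differed by 2.52 and 0.93. It was separated with BeadChip 3 (2.34) and with BeadChip 4 (2.06) of WTHER2-2 alone. It was not separated without background correction or in the authors' normalized table, where the difference was 1.26 in both.

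Sema4g, a transmembrane class 4 semaphorin, was detected on all 8 d16HER2 arrays and on no WT HER2 array. Its log2 intensity on replicates 1 to 4 was 6.65, 6.70, 6.52 and 7.38 in MI6, 7.87, 6.35, 6.56 and 6.65 in MI7, 5.06, 5.34, 5.13 and 5.19 in WTHER2-1 and 5.18, 4.95, 5.14 and 5.78 in WTHER2-2. The transgenes did not overlap. Its level was at least 2.33-fold higher with d16HER2 (means 6.84 and 5.22, line-level limma adjusted p = 0.0675), with pair adjusted p from 0.000489 to 0.000713. The call held with either BeadChip of WTHER2-2 alone (1.71 and 1.52 for BeadChips 3 and 4). It was lost in the authors' table and without background correction (0.81 in both).

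Most receptors of the semaphorins had lower means in the d16HER2 lines, and none met the rule for separation. Of 6 tested plexins and neuropilins, 5 had a lower mean, 0 were separated and 4, all lower, passed the line-level limma test at an unadjusted p under 0.05 (over all genes 9% did so in this direction), with a median difference of -1.26. Plxna2, an A-type plexin that serves secreted and class 6 semaphorins, measured 7.36, 6.33, 6.36 and 7.40 in MI6, 5.24, 4.98, 5.39 and 5.97 in MI7, 7.82, 7.71, 7.80 and 7.84 in WTHER2-1 and 8.36, 8.57, 9.22 and 9.32 in WTHER2-2 on replicates 1 to 4. The d16HER2 arrays all lay below the WT HER2 arrays, and MI7 was lowest. The difference was -2.20 ± 0.67 (line-level limma adjusted p = 0.207). All 4 pairs passed the adjusted p in limma, and MI6 against WTHER2-1 missed the minimum difference at -0.93. Without MI6 replicate 1 or without MI6 replicate 4, Plxna2 was separated (-2.28 and -2.29). With BeadChip 3 or 4 of WTHER2-2 alone it was -2.0 and -2.40. The mesenchymal marker means lay lower on the same arrays.

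Nrp2, neuropilin-2, which binds Sema3f and VEGF-C, measured 7.26, 6.63, 6.60 and 7.20 in MI6, 5.68, 5.39, 5.57 and 6.13 in MI7, 8.12, 7.97, 7.70 and 7.46 in WTHER2-1 and 8.56, 8.65, 9.94 and 9.67 in WTHER2-2 on replicates 1 to 4. As for Plxna2, all d16HER2 arrays were below all WT HER2 arrays, and MI6 against WTHER2-1 alone missed the minimum difference (-0.89). The difference was -2.20 ± 0.69 (line-level limma adjusted p = 0.214), and its other passing probes, each detected on 5 arrays, differed by -0.64 and -0.45. Without WTHER2-1 replicate 4, Nrp2 was separated (-2.26). With BeadChip 3 or 4 of WTHER2-2 alone it was -1.90 and -2.50. Nrp1, neuropilin-1, the partner of Sema3a and a VEGF co-receptor, was named after its values were seen, and measured 9.33, 9.25, 9.36 and 8.63 in MI6, 8.55, 8.38, 8.40 and 7.30 in MI7, 11.26, 11.12, 10.01 and 11.19 in WTHER2-1 and 10.29, 10.55, 10.97 and 8.75 in WTHER2-2 on replicates 1 to 4. WTHER2-2 replicate 4 fell within the MI6 arrays, so the groups overlapped. The difference was -1.87 ± 0.48 (line-level limma adjusted p = 0.168), and its other passing probes differed by -1.05 and -1.85. MI6 against WTHER2-2 was the pair past neither threshold (-0.996, adjusted p = 0.0773 in limma). Nrp1 was separated without WTHER2-2 replicate 4, with BeadChip 3 of WTHER2-2 alone and with the mean of its probes.

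**Figure D1:**
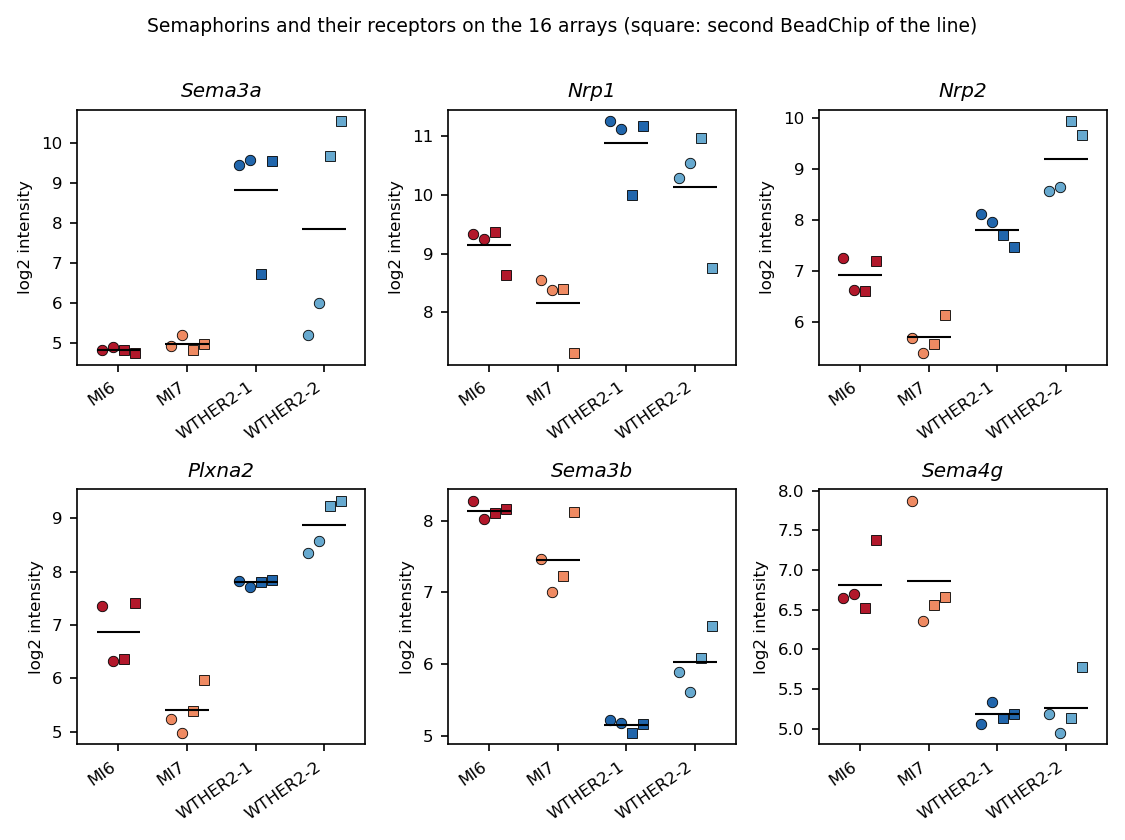
Log2 intensity of 6 semaphorin and receptor genes on each of the 16 arrays, grouped by line on the x axis. Circles are the first and squares the second BeadChip of a line, and bars are line means. Sema3a, Nrp2 and Plxna2 lay lower on all d16HER2 arrays, and Sema3b and Sema4g higher.

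The promoters of 3 genes that were lower on every d16HER2 array, Sema3a, Plxna2 and Nrp2, are shown with that of Sema4g, which was higher, to set their sequence beside their values. Sema3b and Ephb3 were also higher on every d16HER2 array, and their promoters are not shown. Each promoter shown spans 250 bases before to 50 after the annotated start (RefSeq, GRCm38.p6) and is written 5′ to 3′. Capitals mark the GC box GGGCGG on either strand. The regions are chr5:13396534-13396833, plus strand for Sema3a, chr1:194619579-194619878, plus strand for Plxna2, chr1:62703067-62703366, plus strand for Nrp2 and chr19:44989094-44989393, plus strand for Sema4g.
Sema3a: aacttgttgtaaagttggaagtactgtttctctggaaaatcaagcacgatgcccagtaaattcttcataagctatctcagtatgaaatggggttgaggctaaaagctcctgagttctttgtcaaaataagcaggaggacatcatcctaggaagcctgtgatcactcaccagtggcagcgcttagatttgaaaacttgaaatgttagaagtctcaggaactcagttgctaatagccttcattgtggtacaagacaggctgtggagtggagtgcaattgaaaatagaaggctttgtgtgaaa
Plxna2: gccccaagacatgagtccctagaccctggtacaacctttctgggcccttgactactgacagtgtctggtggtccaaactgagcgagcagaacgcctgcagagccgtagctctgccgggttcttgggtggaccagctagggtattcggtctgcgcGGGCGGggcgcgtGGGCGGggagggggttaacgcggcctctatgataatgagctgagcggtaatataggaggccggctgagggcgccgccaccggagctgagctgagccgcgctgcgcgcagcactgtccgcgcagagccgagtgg
Nrp2: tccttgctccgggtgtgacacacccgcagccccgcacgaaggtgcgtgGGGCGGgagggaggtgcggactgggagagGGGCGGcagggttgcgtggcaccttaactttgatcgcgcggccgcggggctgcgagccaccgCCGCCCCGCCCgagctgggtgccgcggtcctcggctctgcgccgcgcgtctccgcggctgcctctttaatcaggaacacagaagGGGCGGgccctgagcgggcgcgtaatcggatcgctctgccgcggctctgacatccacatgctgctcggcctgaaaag
Sema4g: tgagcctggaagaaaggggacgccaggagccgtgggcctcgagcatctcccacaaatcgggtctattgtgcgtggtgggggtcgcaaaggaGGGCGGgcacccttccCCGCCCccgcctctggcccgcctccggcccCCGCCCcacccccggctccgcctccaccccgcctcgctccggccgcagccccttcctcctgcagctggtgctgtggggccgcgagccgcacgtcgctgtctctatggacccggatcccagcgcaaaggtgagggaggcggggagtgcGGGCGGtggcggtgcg
The GC box occurred 0 times in the Sema3a window, 2 in Plxna2, 5 in Nrp2, where 2 overlap by 1 base, and 4 in Sema4g. It was found in 46.2% of 21263 protein-coding promoters of the same length and in 77.3% of 44 promoters of 33 tested members. Sema6a was left out of the members' promoters by name, and the tested members Sema3b and Sema3f had no promoter entry that was used. The E-box CAGGTG or CACCTG, the form bound by Zeb and Snail factors, was in none of the 4 windows, in 19.7% of protein-coding promoters and in 13.6% of the members' promoters. The AP-1 motif TGANTCA, searched on both strands, was also in none of the 4, against 7% of protein-coding promoters and 2.3% of the members' promoters. A motif is a description of these letters and not a bound site.

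The remaining semaphorins gave no separation. Sema4f, a transmembrane class 4 semaphorin, measured 7.56, 7.76, 6.25 and 7.59 on WTHER2-1 replicates 1 to 4 and at most 5.75 on any other array. It was detected on all 4 WTHER2-1 arrays, on 2 of WTHER2-2 and on 0 of the d16HER2 arrays. The d16HER2 level was at least 1.54-fold lower (means 4.87 and 6.25, line-level limma adjusted p = 0.407). Sema3c, a secreted semaphorin that signals through neuropilins and plexins, measured 4.78, 4.78, 4.79 and 4.58 in MI6, 5.20, 4.82, 5.41 and 5.41 in MI7, 5.65, 6.33, 5.30 and 5.56 in WTHER2-1 and 6.07, 6.67, 4.89 and 5.14 in WTHER2-2. It was detected on 4 arrays, all of WT HER2 lines, and the groups overlapped. The neuropilin-2 ligand Sema3f differed by -0.24 ± 0.46, Sema4b by -0.28 ± 0.32, Sema4a by 0.32 ± 0.75, Sema6a by 0.51 ± 0.41 and Sema4d, the ligand of Plxnb1, by 0.62 ± 0.29. Sema6d, of the class that binds A-type plexins directly, was detected on 5 of 16 arrays (0.15 ± 0.40). Plxnb1 itself differed by 0.41 ± 0.28, Plxnb2 by -0.51 ± 0.17 and Plxnd1, a receptor of Sema3e, by -0.65 ± 0.43. Among all of these Sema3c had the lowest line-level adjusted p in limma, 0.22.

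Ephrins and Eph receptors showed no separation by transgene. Of 6 ephrins 3 had a higher and 3 a lower mean in the d16HER2 lines, with a median of 0.08, and of 8 Eph receptors 4 were higher and 4 lower, with a median of 0.07. Among the ligands, the largest difference was that of Efna1, a ligand of EphA2, at -0.79 ± 0.50 (line-level limma adjusted p = 0.47). It measured 8.92, 9.06, 9.35 and 9.49 in MI6, 8.22, 8.40, 8.62 and 9.0 in MI7, 9.39, 9.20, 8.28 and 9.53 in WTHER2-1 and 10.79, 10.91, 9.45 and 9.84 in WTHER2-2 on replicates 1 to 4. WTHER2-2 was highest, and the ranges of the transgenes overlapped. Efna3, another A-type ephrin, was detected on the WTHER2-1 arrays alone, where it measured 6.30, 5.91, 6.65 and 6.06, against 4.73 to 5.28 elsewhere (-0.50 ± 0.52, line-level limma adjusted p = 0.657). Efna4 (0.40 ± 0.22), Efna5 (0.42 ± 0.86), Efnb1 (-0.24 ± 0.44) and the EphB4 ligand Efnb2 (0.45 ± 0.33) also overlapped between the transgenes.

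Among the receptors, Ephb3 was detected on 5 of 8 d16HER2 arrays and on no WT HER2 array. It measured 6.14, 5.50, 5.60 and 6.03 in MI6, 6.43, 5.55, 5.91 and 6.64 in MI7, 4.77, 5.42, 5.07 and 5.21 in WTHER2-1 and 5.37, 5.33, 5.09 and 5.38 in WTHER2-2 on replicates 1 to 4. All d16HER2 arrays lay above all WT HER2 arrays, but by little. The d16HER2 level was at least 1.28-fold higher (means 5.97 and 5.21), with a line-level limma adjusted p of 0.181. Epha1, the founding member of the Eph family, differed by 0.67 ± 0.57 (line-level limma adjusted p = 0.584), a direction that turned to -0.48 with BeadChip 3 of WTHER2-2 alone. Epha2 differed by 0.48 ± 0.48, Epha3 by 0.26 ± 0.28, Epha4 by -0.18 ± 0.22, Epha7 by -0.12 ± 0.60, Ephb4 by -0.14 ± 0.29 and Ephb6, which lacks kinase activity, by -0.46 ± 0.29. The arrays of the transgenes overlapped for each of these.

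**Figure D2:**
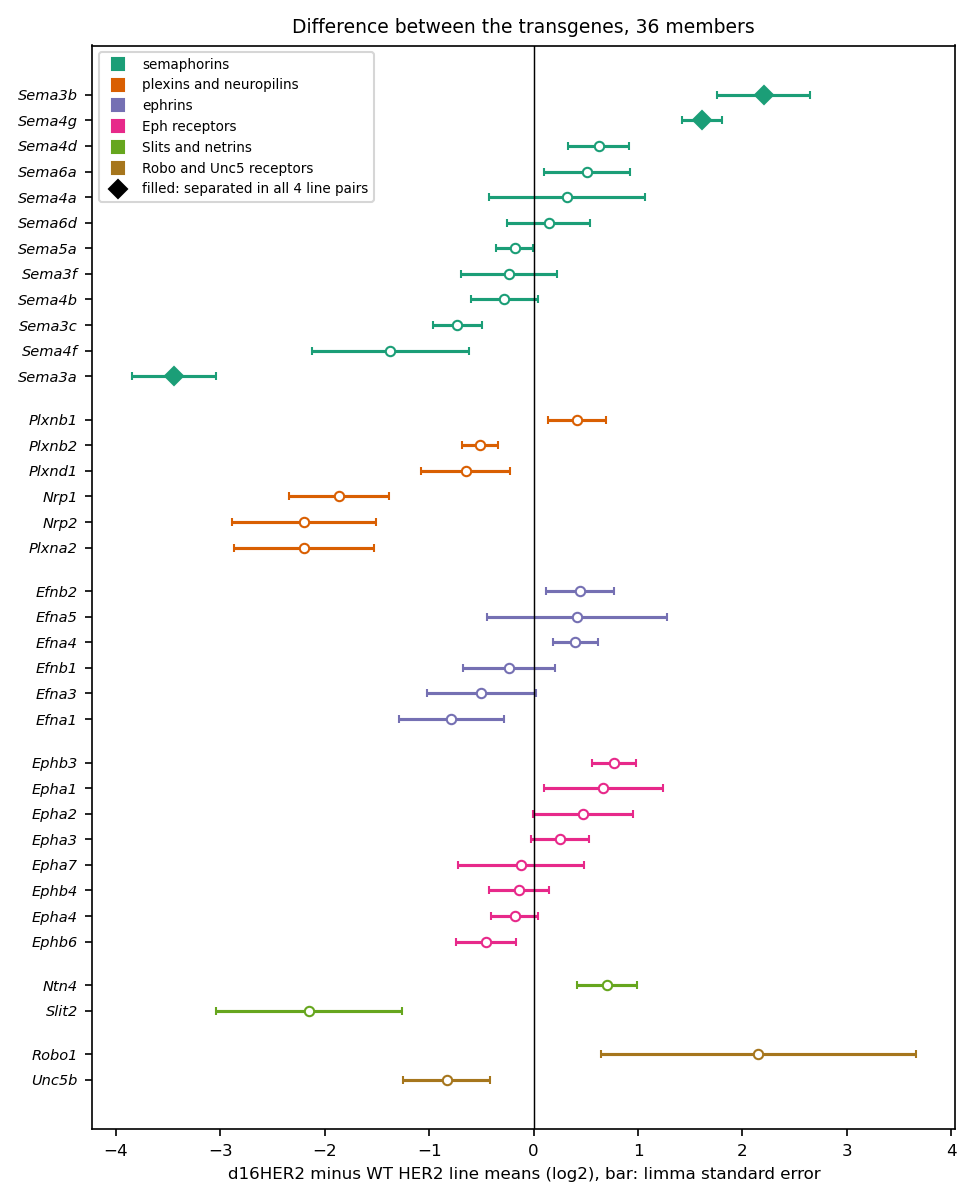
Difference between d16HER2 and WT HER2 line means on the log2 scale for the 36 tested members, by family, with limma standard errors. Filled diamonds mark the 3 separated members, Sema3a, Sema3b and Sema4g, and the other 33 are open circles.

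Slit2 and Robo1, a ligand and its receptor, each stood out in 1 line rather than by transgene. Robo1, a Slit receptor known in mammary duct cells, measured 8.86, 8.93, 8.83 and 9.37 in MI6, 9.39, 9.09, 9.21 and 10.22 in MI7, 4.88, 4.85, 5.14 and 4.99 in WTHER2-1 and 8.54, 8.33, 10.31 and 9.63 in WTHER2-2 on replicates 1 to 4. It was detected on every array of 3 lines and on 0 of 4 arrays of WTHER2-1. WTHER2-1 was at least 10.9-fold lower than MI6, 15.2-fold lower than MI7 and 12.6-fold lower than WTHER2-2 (limma adjusted p of 7.97e-07, 2.69e-07 and 6.98e-07). Against WTHER2-2 the d16HER2 lines differed by -0.21 for MI6 and 0.27 for MI7 (limma adjusted p = 0.693 and 0.583), so the mean transgene difference of 2.15 ± 1.51 came from 1 line (0.03 without it). The lines with the high level include both d16HER2 lines. With BeadChip 3 or 4 of WTHER2-2 alone, the level in WTHER2-1 was at least 7.39-fold and 21.4-fold lower.

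Slit2, a secreted Robo ligand, had its lowest level in MI6. It measured 5.36, 5.71, 5.58 and 6.0 in MI6, 7.82, 7.55, 7.60 and 8.24 in MI7, 7.85, 7.90, 9.32 and 8.03 in WTHER2-1 and 10.25, 10.36, 8.95 and 8.44 in WTHER2-2 on replicates 1 to 4. MI6 arrays did not overlap those of any other line, and 2 of the 4 detected the probe. MI6 minus MI7 was -2.14 ± 0.41 (limma adjusted p = 0.0122), with -2.15 within BeadChip 1 and -2.13 within BeadChip 2, which hold both lines. The other passing probe, detected on 5 arrays, differed by -0.56, and with the mean of the 2 probes the pair was not called (-1.35). The difference between transgenes was -2.15 ± 0.89 (line-level limma adjusted p = 0.303). WTHER2-1 minus WTHER2-2 was -1.23 ± 0.41 (limma adjusted p = 0.0312), a call lost without WTHER2-1 replicate 1 (-1.09), 2 (-1.10) or 4 (-1.15), and without WTHER2-2 replicate 1 (-0.98) or 2 (-0.94). Within the pair, WTHER2-2 differed most on BeadChip 3, with -2.03 against -0.42 for BeadChip 4.

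The netrin side held fewer members. Ntn4, a netrin of basement membranes, was detected on all 8 d16HER2 arrays, 2 of WTHER2-1 and 0 of WTHER2-2, and measured 6.35, 5.86, 5.71 and 5.81 in MI6, 6.73, 6.23, 6.13 and 6.01 in MI7, 5.45, 6.12, 5.70 and 5.39 in WTHER2-1 and 4.86, 5.12, 5.47 and 5.09 in WTHER2-2. The transgenes overlapped (0.70 ± 0.28, line-level limma adjusted p = 0.291). Unc5b, a netrin receptor, measured 9.83, 9.48, 9.56 and 10.49 in MI6, 8.94, 9.0, 9.28 and 10.02 in MI7, 9.94, 9.72, 10.12 and 10.03 in WTHER2-1 and 11.04, 10.97, 10.73 and 10.72 in WTHER2-2. It was highest in WTHER2-2, with no overlap with another line. Its transgene difference was -0.83 ± 0.41 (line-level limma adjusted p = 0.369).

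Few of these genes differed between the d16HER2 lines. Of the 36 members, 2 were called between MI6 and MI7, 5.56% against 1.18% of all genes (0.504% higher and 0.681% lower in MI6), at a limma adjusted p under 0.05 and a difference of at least 1. They were Slit2, lower in MI6, and Plxna2, higher in MI6 by 1.46 ± 0.30 (limma adjusted p = 0.019). The Plxna2 difference was 1.73 within BeadChip 1 and 1.20 within BeadChip 2. The call was lost without MI6 replicate 1 (1.30), without MI6 replicate 4 (1.28), and without MI7 replicate 1 (1.41), 2 (1.32) or 3 (1.46). All 6 tested plexins and neuropilins had a higher mean in MI6, with a median of 0.90, and Nrp2 (1.23) and Nrp1 (0.99) were the largest after Plxna2. With the shared BeadChips as a fixed block, 3 members were called, where 2.45% of all genes were, and with BeadChip as a random block the same 3 were (1.68% of all genes). The added gene was Nrp2 (1.23, limma adjusted p = 0.0135 and 0.0132 with the blocks and 0.065 without). No member was called in the authors' table or without background correction, where Slit2 was -1.23 in the authors' table and Plxna2 0.74 in both.

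The WT HER2 lines differed in more of these genes. Between WTHER2-1 and WTHER2-2, 13 of the 36 members were called, 36.1% against 15.9% of all genes. Of these 8 were higher and 5 lower in WTHER2-1, where 8.17% and 7.7% of all genes were. By family these were 3 of 12 semaphorins, 2 of 6 plexins and neuropilins, 4 of 6 ephrins, 2 of 8 Eph receptors, 1 of 2 Slits and netrins and 1 of 2 Robo and Unc5 receptors. Higher in WTHER2-1 were Efna5 (2.43 ± 0.62, limma adjusted p = 0.00724), Sema4f (2.09 ± 0.30, 9.13e-05), Sema4a (1.90 ± 0.41, 0.00255), Epha7 (1.60 ± 0.52, 0.0258), Efna3 (at least 1.46-fold, 6.44e-06), Epha2 (1.22 ± 0.26), Efnb1 (1.14 ± 0.28) and Sema3f (1.09 ± 0.35). Lower in WTHER2-1 were Robo1, Nrp2 (-1.39 ± 0.30, limma adjusted p = 0.00268), Slit2, Efna1 (-1.15 ± 0.33, 0.0151) and Plxna2 (-1.07 ± 0.30, 0.0123). Epha2, Efnb1 and Sema3f were named after their values were seen.

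Which of these held depended on the BeadChip of WTHER2-2. With BeadChip 3 alone 10 members were called against WTHER2-1 (27.8%, against 17.3% of all genes), and with BeadChip 4 alone 18 (50%, against 24.4%). With either BeadChip alone in the same direction, 4 were called, 11.1% against 8.69% of all genes, namely Robo1, Sema4f, Efna3 and Efna5. Of these, Efna3 was detected on the 4 WTHER2-1 arrays alone, and Sema4f on those 4 and 2 of WTHER2-2. Both passed the detection filter only through WTHER2-1, where they were higher, so their calls are no independent support. Neither was tested with detection on at least 8 arrays. Efna3 was also not called without background correction or in the authors' table (0.73 in both), or with an offset of 50 (0.82). Plxna2 also missed the minimum difference in those settings (-0.86 in the first 2 and -0.97). With median scaling Plxna2 (-0.80), Efna1 (-0.86) and Slit2 (-0.91) lost their call. Averaging over passing probes took the call from Nrp2 (-0.63), Epha7 (0.78), Sema3f (0.95) and Slit2 (-1.16), and added Ephb4. There Nrp2 missed only the minimum difference, and Slit2 only the adjusted p (0.058 in limma). The other passing Nrp2 probes, each detected on 5 arrays, differed by -0.53 and 0.02 between WTHER2-1 and WTHER2-2. Sema4a was 0.92 with BeadChip 3 and 2.87 with BeadChip 4, Epha7 0.44 and 2.76, and Nrp2 -0.79 and -1.99. Sema3f was 0.52 and 1.66, Epha2 0.81 and 1.63, Efnb1 0.77 and 1.51 and Plxna2 -0.67 and -1.48, each called with BeadChip 4 alone. Efna1 was -1.75 and -0.54, called with BeadChip 3 alone. With BeadChip as a random block in limma, Epha7, Slit2 and Sema3f lost their call (adjusted p = 0.0537, 0.0656 and 0.0606). Epha7 also lost it without WTHER2-1 replicate 1 (1.55), 2 (1.55) or 4 (1.60) and without WTHER2-2 replicate 3 (1.52) or 4 (0.91), Efna1 without WTHER2-1 replicate 3 (-0.87) and without WTHER2-2 replicate 1 (-0.97) or 2 (-0.92), and Plxna2 without WTHER2-2 replicate 3 (-0.95) or 4 (-0.92). Sema3f lost it without WTHER2-1 replicate 1 (1.09), 2 (0.98) or 4 (0.997) and without WTHER2-2 replicate 3 (1.004) or 4 (0.80), and Efnb1 without WTHER2-2 replicate 4 (0.98).

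**Figure D3:**
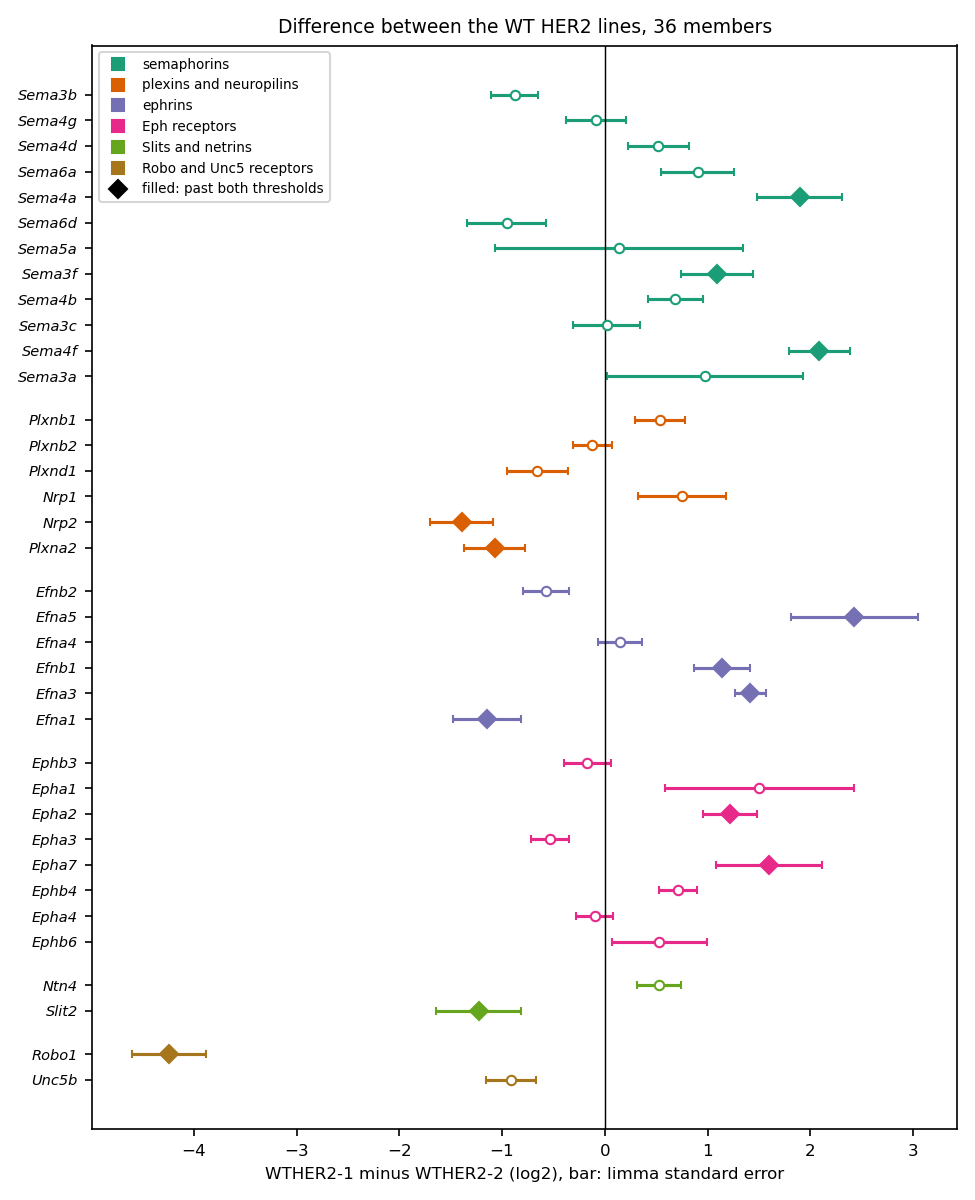
Difference between WTHER2-1 and WTHER2-2 on the log2 scale for the 36 tested members, by family, with limma standard errors. Filled diamonds mark the 13 called members, of which Robo1, lower in WTHER2-1, is farthest from 0, and Sema5a, with 2 levels in WTHER2-2, has the widest bar.

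The split of WTHER2-2 ran through several of these genes. Between its BeadChips 15 of the 36 members differed at least 2-fold, 41.7% against 20.8% of all genes, 9 higher and 6 lower on BeadChip 3 (11.5% and 9.32% of all genes). In the other lines 0 members of MI6, 0 of MI7 and 1 of WTHER2-1 did. With 2 arrays on each BeadChip this is a description, with no test. The epithelial marker mean was lower and the mesenchymal one higher on BeadChip 4, and their part in these values was not tested.

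Sema5a, a transmembrane semaphorin with thrombospondin repeats, had 2 levels in WTHER2-2. It measured 10.47, 10.73, 10.63 and 10.07 in MI6, 10.51, 10.58, 10.40 and 10.40 in MI7, 10.76, 10.92, 10.38 and 10.84 in WTHER2-1 and 7.49, 7.11, 13.89 and 13.86 in WTHER2-2 on replicates 1 to 4. The 12 arrays of the other lines lay within 1 of each other on the log2 scale, between a low pair and a high pair in WTHER2-2. The line mean of WTHER2-2 (10.59 ± 3.80, SD) was therefore near those of the other lines, and the transgene difference was -0.18 ± 0.18. Against WTHER2-1 the sign turned with the BeadChip, 3.42 for BeadChip 3 and -3.15 for BeadChip 4, both called in limma. A further Sema5a probe, detected on all 16 arrays, showed the same split (-6.45, BeadChip 3 minus BeadChip 4), while others differed by -0.75 and -0.31.

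Sema3a (-4.51, BeadChip 3 minus BeadChip 4), Sema6d (-1.93) and Robo1 (-1.53) were also lower on BeadChip 3. Higher on BeadChip 3 were Epha1 (4.59), Efna5 (2.52), Epha7 (2.32) and Sema4a (1.94). Epha1 measured 10.83, 10.52, 7.43 and 4.75 on WTHER2-2 replicates 1 to 4 and 9.35 to 10.36 on the arrays of the other lines, and its other passing probes differed by 3.70, 1.80 and 2.76 between the BeadChips. Efna5, an A-type ephrin, measured 12.32, 12.23, 11.04 and 8.47, and 12.03 to 13.86 on the arrays of the other lines. Epha7, a receptor of A-type ephrins, measured 8.04, 7.82, 6.53 and 4.70, and 7.14 to 8.52 elsewhere. Sema4a, a transmembrane class 4 semaphorin, measured 9.98, 9.56, 8.30 and 7.36, and 9.46 to 11.17 elsewhere. For these 4 genes replicate 4 was the lowest array, and BeadChip 3 lay within or near the range of the other lines.

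**Figure D4:**
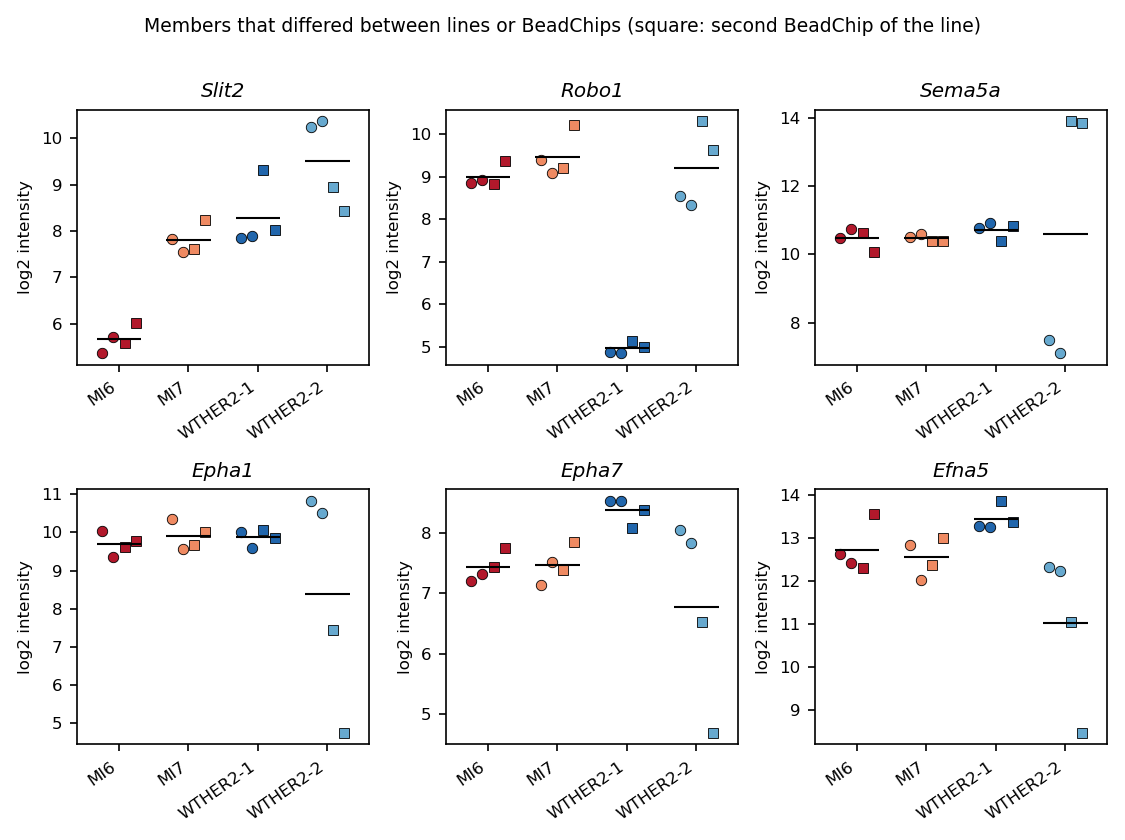
Log2 intensity of 6 members on each of the 16 arrays, grouped by line on the x axis. Circles are the first and squares the second BeadChip of a line, and bars are line means. Robo1 was at background on the 4 WTHER2-1 arrays, Slit2 was lowest in MI6, and the other 4 genes split WTHER2-2 by BeadChip.

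**Figure D5:**
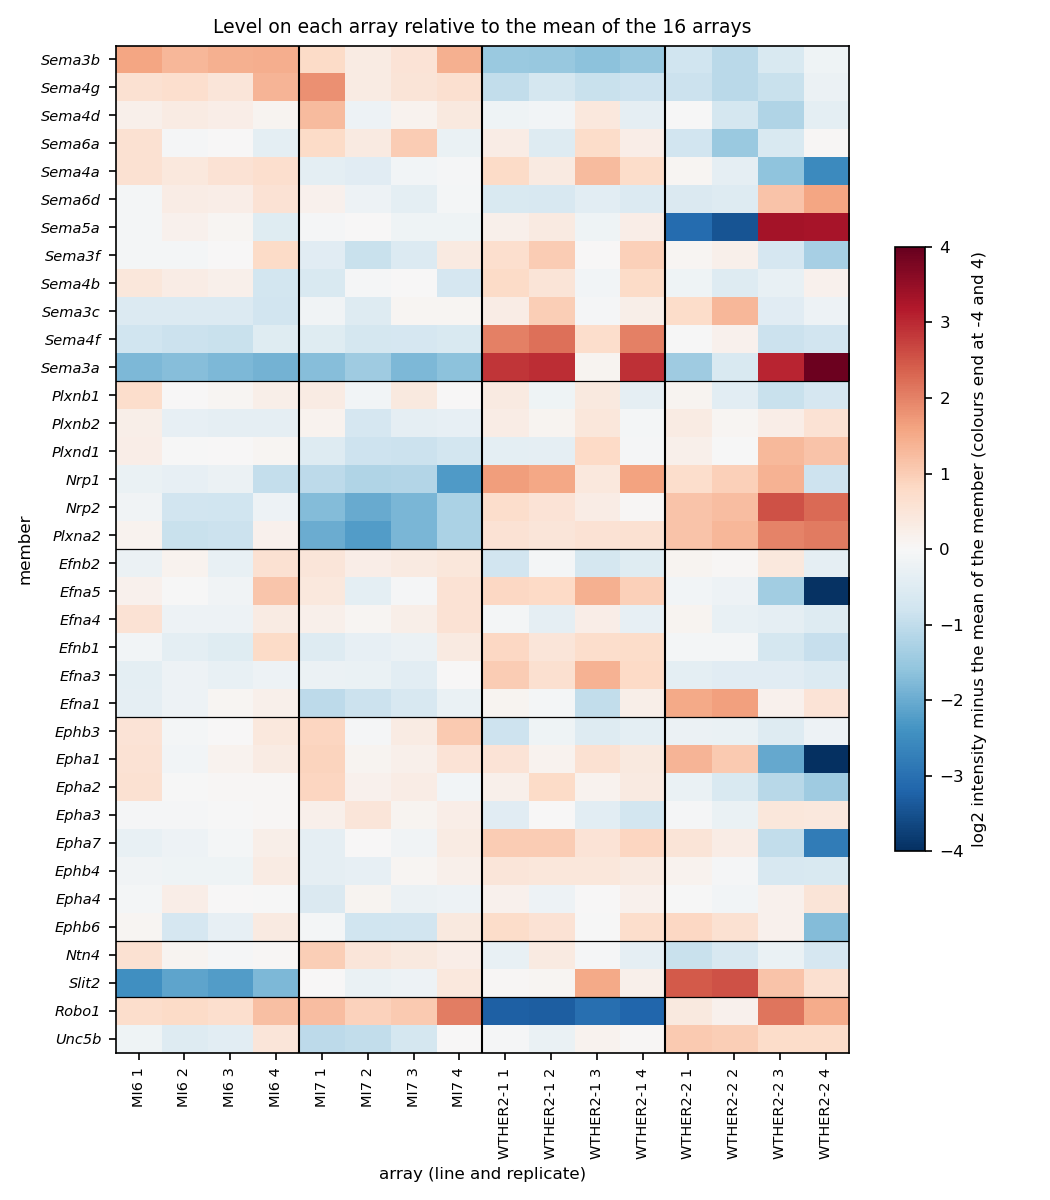
Log2 intensity of the 36 tested members (rows, by family) on the 16 arrays (columns, by line and replicate), each relative to the member's mean over the arrays. Red is above and blue below the mean, and WTHER2-2 replicates 3 and 4 differ from replicates 1 and 2 in Sema5a, Sema3a, Epha1 and Efna5.

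The other 14 members did not pass the detection filter or had no probe. Ephb2 and Ntn1 had no probe under their symbols in the annotation used. No probe of Sema3d, Sema4c, Sema6c, Plxna1, Plxna3 or Efna2 was detected on any array. Sema3e, Plxnc1 and Efnb3 were detected on 3 arrays at most, and Sema6b, Sema7a and Slit3 on 2. This does not show that the genes were silent, since arrays give only a bound there. Without the detection filter, 12 of the 14 entered the fit, none was separated by transgene, and Sema7a was called between the WT HER2 lines (WTHER2-1 minus WTHER2-2 of -2.14, limma adjusted p = 0.0245).

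Other genes of the pathways were taken from 2 lists of 29 and 56 genes. Of 13 tested other ligands and receptors of these families 1 was separated, and of 39 tested signalling partners 4 were, 2 in each direction, 7.69% and 10.3% against 5.52% of all genes. Flrt3, a membrane protein that binds Unc5 receptors, was higher with d16HER2, at line means of 11.42 (MI6) and 11.12 (MI7) against 8.71 (WTHER2-1) and 9.72 (WTHER2-2) (line-level limma adjusted p = 0.123). Dpysl5, of the collapsin response mediator family that acts downstream of semaphorins, differed by 3.24 ± 0.30 (line-level limma adjusted p = 0.0523), with 5 of 8 WT HER2 arrays detected. The kinase Fyn, which acts downstream of plexins and EphA receptors, was detected on all d16HER2 arrays, on 2 of WTHER2-2 and on 0 of WTHER2-1. It was at least 2.94-fold higher in MI6 and 3.0-fold higher in MI7 than in WTHER2-1 (line-level limma adjusted p = 0.0748 between the transgenes). Lower were Arhgef12 (-1.54 ± 0.37), an exchange factor for RhoA that binds B-type plexins, and the small GTPase Rnd2 (-1.28 ± 0.22), with line-level limma adjusted p of 0.158 and 0.103. With BeadChip 3 of WTHER2-2 alone Flrt3 (1.60) and Rnd2 (-0.83) were not separated, and with BeadChip 4 alone all 5 of these genes were.

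Markers of other cell types were in part detected. Of 9 endothelial markers 6 were detected on no array, among them Pecam1 and Cdh5, and of 7 immune markers with a probe 5 were not, among them Ptprc. Csf1r and Cd14 of the immune list and Kdr of the endothelial list were detected on all 16 arrays, and the immune mean over 2 tested markers ran from 7.65 to 10.13. The endothelial mean over 3 tested markers ran from 5.58 to 6.62. Of 6 neural or Schwann markers with a probe 3 were detected on no array, and Map2 and Ncam1 on all 16. The mean of 3 tested myoepithelial markers was highest in WTHER2-1 (9.04 to 9.72) and ran from 5.69 to 7.81 on the arrays of the other lines, and its part in the values above was not tested.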

How the data were processed

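The 50 genes and all lists were chosen with earlier results of these data known. The authors deposited a non-normalized intensity and a detection p-value for each probe and array, per the file headers. The submitters' processing notes name BeadStudio. A normalized intensity table deposited by the authors, with a method not given in the sources used here, served as an alternative. Raw intensities were corrected by limma's normexp model, its background estimated through the detection p-values and its offset 16, quantile-normalized over 16 arrays and put on the log2 scale (R 4.3.3, limma 3.58.1, statmod 1.5.0). Probes detected at p under 0.05 on at least 4 arrays entered, which 20152 did, and the brightest probe stood for a gene (34885 probes had 1 symbol, 18 several and 10378 none). The line-level test compared line means, 2 against 2, and the other comparisons came from a fit of 4 lines to 16 arrays, both with an intensity trend and Benjamini-Hochberg adjustment over 10724 genes. "At least" folds set a group with no detected array at the lowest detected signal of each array. Genes were named by these rules: separated members, the 2 next largest differences per family, up to 3 called members per direction for MI6 against MI7, up to 5 for WTHER2-1 against WTHER2-2, and the 4 largest per direction between the BeadChips of WTHER2-2. The transgene fits were tested on simulated data. Those data held no differences between lines of a transgene or between BeadChips, and capped the spread of arrays. They do not show how the fits behave with such differences. The number of arrays limits the precision. Alternatives were no background correction, an offset of 50, median scaling and the authors' table. Others were no detection filter, detection on at least 8 arrays and the mean of a gene's probes. Each BeadChip of WTHER2-2, each line and, after normalization, each array was also left out. BeadChip as a random block and the adjusted p alone were run too.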

Additional observations from a re-analysis of the deposited data

Results flagged for a closer look

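Within the 4 arrays of a line, 1 array stood far from the other 3 in 4 of 80 groups (20 genes in 4 lines). About 1 in 20 would be expected of independent groups, but genes read on the same array are not independent. The 20 genes were those named by rule, without Nrp1, Epha2, Efnb1 and Sema3f. Of these, Nrp1 lay apart on WTHER2-1 replicate 3 (10.01 against 11.12 to 11.26). So did Epha2 on MI6 replicate 1 (9.72 against 9.13 to 9.18) and Sema3f on MI6 replicate 4 (11.11 against 10.27 to 10.36). In the 4 groups counted, replicate 3 of WTHER2-1 was that array in 3. Sema3a measured 6.73 there against 9.47 to 9.59 on the other arrays of the line, Sema4f 6.25 against 7.56 to 7.76, and Slit2 9.32 against 7.85 to 8.03. The mean of the tested mesenchymal markers was also lowest in that line on replicate 3 (7.67, against 8.41 to 8.57), and its part was not tested. Sema3c measured 4.58 on MI6 replicate 4 against 4.78 to 4.79 on the other MI6 arrays, all below detection.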

How the results depend on the processing

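Of the alternatives, 27 were run for the 3 members separated by transgene, and the count was 2 to 4 with single arrays left out, 1 (Sema3a) in the authors' table and without background correction, and 5 with the adjusted p alone, which adds Plxna2 and Nrp2. The values of those 2 settings are nearly equal, so they are not separate checks, and they leave 0 members higher in d16HER2 in place of 2. Sema3a was not tested with detection on at least 8 arrays. Sema4g met that filter only through the 8 d16HER2 arrays, where it was higher. Its line-level pass under that filter, given next, is thus no independent support. The count past the line-level limma test was 0 as reported and without any single array, 1 (Sema4g) with detection on at least 8 arrays, 5 without the line WTHER2-1 and 7 without WTHER2-2, where the lone WT HER2 line is assumed to vary like the d16HER2 lines. Over all genes, 53 of 10724 passed the line-level limma test as reported and 126 of 9904 with detection on at least 8 arrays. The share of all genes that passed without a line is not given here. The member counts without a line thus cannot be read as particular to the members. Members called between MI6 and MI7 numbered 2, 1 to 3 with single arrays left out, 0 in the authors' table and without background correction, 1 with an offset of 50 and 1 when a gene's probes were averaged. The 13 members called between the WT HER2 lines numbered 10 to 18 over 26 alternatives. The median difference of the members ran from -0.35 to 0.11 over 29 alternatives. Epha1 turned to -0.48 without the WTHER2-2 arrays of BeadChip 4 and to -0.084 without the line WTHER2-2, and Efna3 to 0.21 without WTHER2-1, none of them called. No paired analysis was possible because the labels give no replicate numbers. BeadChip, shared by MI6 and MI7, was run as a fixed block instead and called 3 members, adding Nrp2. Dim probes such as Sema4g, Efna3 and Ephb3 are limited by background signal.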
